A study of Homo sapiens with 6 samples.

Results

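RUNX1, RUNX2 and RUNX3 are the DNA-binding subunits of the core binding factor, and CBFB is their shared partner. The data on these genes are the accessible sites of a deposited ATAC-seq site table (GRCh38) that overlapped the gene body of RUNX1, RUNX2, RUNX3 or CBFB extended by 50 kb on each side. By this rule 150 of 181135 sites were members. RUNX1 had 65 of them, RUNX2 36, RUNX3 32 and CBFB 17. The cells were K562, an established line of human leukaemia cells, of the genotype labelled WT. They were treated for 0 h, 6 h or 72 h with 25 nM PMA, a phorbol compound that switches on protein kinase C and under which K562 cells take on megakaryocyte features. Each time had 2 libraries, the 0 h libraries are the control, and all 3 groups come from this 1 line. The labels do not say whether the 2 libraries of a time came from separate cultures, so every p-value below measures only the spread between these libraries, which may be technical.

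RUNX proteins bind DNA through their runt domain, and CBFB, which does not touch DNA itself, raises that affinity and protects the RUNX protein from degradation. All 3 RUNX genes of vertebrates are transcribed from a distal promoter, P1, and a proximal promoter, P2, which give proteins with different amino ends. RUNX1 is needed for the emergence of blood stem cells and for the maturation of megakaryocytes, RUNX2 is best known as the master regulator of bone formation, and RUNX3 acts in T cells, natural killer cells and sensory neurons. In ATAC-seq a transposase cuts open chromatin, so reads at a promoter report its accessibility and not the amount of RNA made from it.

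The sequences just upstream of the promoters are shown because the members' accessibility at each start is described below and the promoters differ in base composition. Each is the 250 bases before the start in the RefSeq promoter table (GRCh38.p14), 5′ to 3′ on the strand of the gene. Capitals mark matches, on either strand, to 5 short strings, none of which contains another. The string TGTGGT is part of the site that RUNX proteins bind, and AGATAA stands for the sites of GATA factors. The string TGANTCA is that of AP-1, the dimers of FOS and JUN proteins, which phorbol esters are known to induce. The string CCGGAA belongs to factors of the ETS family, and GGGCGG to the SP family of zinc finger proteins. Symbols of 3 of the 4 genes matched the promoter table, in which RUNX1 is given at P2. Coordinates are chr21:34888700-34888949 (minus strand) for RUNX1 P2, chr21:34836063-34836312 (plus) for RUNX1-AS1, an antisense gene that starts inside RUNX1, chr6:45328080-45328329 (plus) for RUNX2 P1, chr6:45422025-45422274 (plus) for RUNX2 P2, chr1:24965011-24965260 (minus) for RUNX3 P1 and chr1:24930277-24930526 (minus) for RUNX3 P2.
RUNX1 P2: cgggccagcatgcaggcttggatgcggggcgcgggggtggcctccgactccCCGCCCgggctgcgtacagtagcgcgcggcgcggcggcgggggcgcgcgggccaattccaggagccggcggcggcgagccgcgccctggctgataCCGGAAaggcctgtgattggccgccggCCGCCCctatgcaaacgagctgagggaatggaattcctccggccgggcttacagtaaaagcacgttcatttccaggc
RUNX1-AS1: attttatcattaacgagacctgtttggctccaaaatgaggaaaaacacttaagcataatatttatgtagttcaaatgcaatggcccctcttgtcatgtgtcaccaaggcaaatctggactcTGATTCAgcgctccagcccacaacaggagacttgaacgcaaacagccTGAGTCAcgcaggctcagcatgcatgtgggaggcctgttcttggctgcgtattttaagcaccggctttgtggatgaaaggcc
RUNX2 P1: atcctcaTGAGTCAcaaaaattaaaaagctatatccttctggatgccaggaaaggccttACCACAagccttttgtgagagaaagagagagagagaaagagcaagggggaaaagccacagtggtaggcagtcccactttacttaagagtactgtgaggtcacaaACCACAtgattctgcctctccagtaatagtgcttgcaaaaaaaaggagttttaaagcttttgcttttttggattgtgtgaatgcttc
RUNX2 P2: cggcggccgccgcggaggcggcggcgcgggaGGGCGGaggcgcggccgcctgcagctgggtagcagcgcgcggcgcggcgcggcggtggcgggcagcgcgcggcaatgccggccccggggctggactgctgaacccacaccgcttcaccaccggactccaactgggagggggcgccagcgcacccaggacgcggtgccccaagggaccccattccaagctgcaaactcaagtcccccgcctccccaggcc
RUNX3 P1: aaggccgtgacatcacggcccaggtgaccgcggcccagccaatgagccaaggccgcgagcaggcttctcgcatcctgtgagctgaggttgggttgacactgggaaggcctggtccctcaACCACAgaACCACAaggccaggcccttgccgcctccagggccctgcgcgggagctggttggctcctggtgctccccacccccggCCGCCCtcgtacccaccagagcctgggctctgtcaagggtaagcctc
RUNX3 P2: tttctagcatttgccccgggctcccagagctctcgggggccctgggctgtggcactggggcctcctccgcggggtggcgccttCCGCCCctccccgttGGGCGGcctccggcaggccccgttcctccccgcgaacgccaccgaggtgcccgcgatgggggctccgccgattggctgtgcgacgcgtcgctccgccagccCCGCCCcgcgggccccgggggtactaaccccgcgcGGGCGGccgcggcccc

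The P2 promoters were GC-rich. Over 300 bases, from 250 before to 50 after the start, GC made up 72.0% of RUNX1 P2, 76.0% of RUNX2 P2 and 76.0% of RUNX3 P2, against 42.7% of RUNX2 P1, 66.3% of RUNX3 P1 and 48.3% of the RUNX1-AS1 start. The SP string occurred 3 times in RUNX1 P2, once in RUNX2 P2, 4 times in RUNX3 P2 and once in RUNX3 P1; it was in 45.0% of 35116 promoters of that length. The ETS string, in 17.2% of promoters, occurred once in RUNX1 P2. The string that RUNX proteins themselves recognise was found in both distal promoters with a sequence here, 4 times in RUNX2 P1 and 2 times in RUNX3 P1, and in 13.1% of all promoters. None of the 3 P2 windows held it. The RUNX1-AS1 window held the AP-1 string 2 times and the RUNX2 P1 window once, against 7.71% of promoters with any match. The GATA string, in 10.3% of promoters, was in none of these 6 windows. A match of letters is a description and not a measured binding site.

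The libraries held between 12258890 and 35548737 reads in sites. The first 6 h library was the shallowest and the second held 33634403. Levels are given below as CPM, counts scaled to 1000000 reads of the library after TMM scaling of the library sizes. K562 identity was checked at the ends of marker genes: all 6 erythroid genes, GATA1 and TAL1 among them, and 4 of 6 megakaryocyte genes had a peak in both 0 h libraries, as did 2 of 4 lymphoid genes, 1 of 3 monocyte genes and 2 of 2 fibroblast genes. PF4, PAX5 and CD14 had no site there. Summed CPM of the erythroid list was 299, 205 and 121 at 0 h, 6 h and 72 h. In the same order the megakaryocyte list had 58.4, 38.2 and 39.1, the lymphoid list 33.3, 27.4 and 26.2, the monocyte list 19.8, 29.4 and 27.6, and the fibroblast list 29.4, 29.7 and 21.2. Within the monocyte list CSF1R had 6.84, 20.6 and 22.9 CPM, whereas LYZ had 12.9, 8.76 and 4.65. Their part in the results below was not tested.

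More sites of the RUNX genes and CBFB gained than lost accessibility at both times, in each of the 5 scalings of the libraries tried. A site was called higher or lower at a Benjamini-Hochberg adjusted p under 0.05 over all tested sites. At 6 h, 53 of the 149 member sites that passed the filter on low counts were higher than at 0 h and 12 were lower, against 23.4% higher and 16.8% lower of all 177759 tested sites. The members' shares were 35.6% and 8.05%. By 72 h, 72 sites (48.3%) were higher and 31 (20.8%) were lower than at 0 h, with 38.2% higher and 29.2% lower over all sites. Between 6 h and 72 h, 28 sites (18.8%) were higher and 34 (22.8%) lower, close to the 22.1% and 20.9% of all sites. The median log2 fold change of the members was 0.58 at 6 h and 0.77 at 72 h, where all tested sites had 0.05 and 0.29.

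Most sites called against 0 h at 6 h were also called in the same direction at 72 h, and more sites were called at 72 h. Both comparisons share the 0 h libraries, so such agreement is partly built in. Over all tested sites, too, more were called at 72 h, with 38.2% higher and 29.2% lower against 23.4% and 16.8% at 6 h. The overlap of calls between the times is given here for members only. Of the 149 sites, 44 were higher at both times and 9 lower at both, 28 were called higher at 72 h only and 22 lower at 72 h only. Another 9 were called higher and 3 lower at 6 h only, and 34 were called at neither time. Of 65 RUNX1 sites, 26 (40.0%) were higher and 6 (9.23%) lower at 6 h, and 34 (52.3%) and 11 (16.9%) at 72 h. RUNX2, with 35 tested sites, was nearly balanced. It had 7 (20.0%) higher and 6 (17.1%) lower at 6 h, and 13 (37.1%) and 11 (31.4%) at 72 h. RUNX3 had 14 of 32 sites (43.8%) higher and CBFB 6 of 17 (35.3%) at 6 h, with 0 lower in both genes. The 0 was not held by every scaling: loess offsets gave 2 lower RUNX3 sites and 3 lower CBFB sites at 6 h, and RLE gave 0 and 3. At 72 h RUNX3 had 16 higher and 3 lower and CBFB 9 and 6. For RUNX2 at 72 h the higher and lower numbers were 13 and 11 with TMM, 9 and 12 with loess offsets and 19 and 4 with factors from shared peaks. A call at one time and not at the other does not show that the times differ; the direct comparison of 72 h with 6 h gives that.

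The numbers of lower sites rested on how libraries were scaled. At 72 h the split of 72 higher and 31 lower became 53 and 41 with loess offsets, 85 and 13 with total counts, and 99 and 12 with factors taken from sites that had a peak in all 6 libraries; at 6 h, 53 and 12 became 42 and 18 with loess offsets; and for 72 h against 6 h, 28 and 34 became 21 and 40, 44 and 19, and 65 and 12. The calls shared by TMM and these 3 scalings and by RLE were 40 higher and 8 lower at 6 h, 51 and 10 at 72 h, and 18 and 9 for 72 h against 6 h. By gene, the calls shared by the 5 scalings at 72 h were 23 higher and 4 lower in RUNX1, 8 and 3 in RUNX2, 12 and 1 in RUNX3, and 8 and 2 in CBFB. Shared calls were counted for members only. The calls over all tested sites moved with the scaling too. At 72 h, 67920 higher and 51969 lower became 52823 and 59938 with loess offsets. With total counts they were 85282 and 34711, and with the shared-peak factors 102809 and 19527. At 6 h, 41515 and 29833 became 33819 and 38814 with loess offsets. For 72 h against 6 h, 39212 and 37099 became 30127 and 31617, 57140 and 20472, and 77056 and 9307 in the same order. Over all tested sites the median log2 fold change at 72 h was 0.29 with TMM, and between -0.04 (loess) and 1.26 (shared peaks) with the others. At 6 h it was 0.05, and between -0.11 and 0.35. Without the second 6 h library, or without the second 72 h library, the number lower at 72 h than at 6 h was 20 in place of 34.

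**Figure D1:**
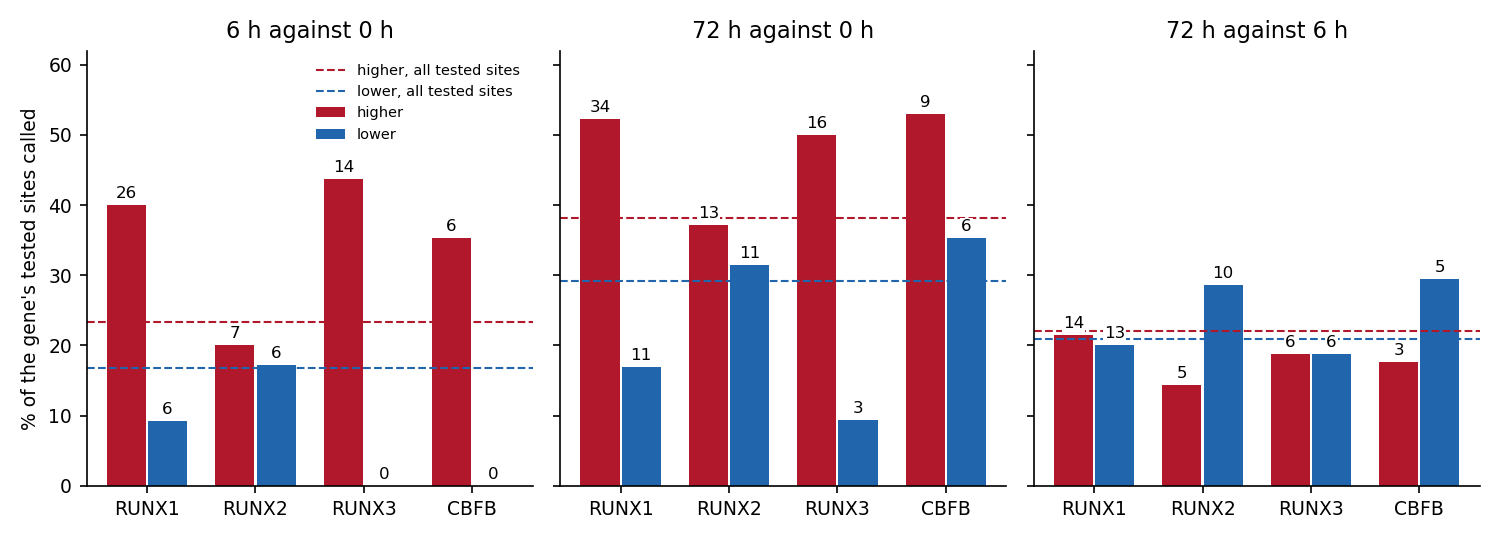
Share of each gene's tested sites called higher (red) or lower (blue) in each comparison, in percent, with the number of sites above each bar; dashed lines give the share over all 177759 tested sites. RUNX1, RUNX3 and CBFB bars for higher sites stood above the dashed red line at 6 h and 72 h, and RUNX2 bars lay close to the lines.

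Peaks at these sites became more frequent with time, as they did over all sites. The authors' peak lists had a peak at 43 and 50 of the 150 sites in the 0 h libraries, at 59 and 92 in the 6 h libraries and at 112 and 115 in the 72 h libraries. The shares were 28.7% and 33.3%, 39.3% and 61.3%, and 74.7% and 76.7%. Over all sites the shares with a peak were 31.7% and 35.7%, 32.8% and 47.9%, and 70.7% and 72.6%. The 6 h library with fewer peaks was also the shallower one, and the part of depth in the peak numbers was not tested. A peak was present in all 6 libraries at 30 of the 150 sites and in none at 11, with no like count over all sites given here.

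RUNX1 lies on the minus strand of chromosome 21 (GRCh38, chr21:34787801-35049302), with P1 at its upper end. The middle of the P2 site is about 160.2 kb further in. The proximal promoter of RUNX1 had the highest mean CPM of all the members' sites, and its distal promoter was weak. The P2 site, chr21:34887833-34890423, covers the P2 start. It had 115 and 172 CPM at 0 h, 115 and 146 at 6 h, then 52.4 and 59.3 at 72 h. The 72 h libraries lay below all 4 others, and the 0 h and 6 h libraries overlapped. The site changed by -0.14 (SE 0.16) on the log2 scale at 6 h, which was not called, and fell by 1.36 (SE 0.16) at 72 h (adjusted p = 2.3e-07). With TMM, tested sites within 1000 bases of the end of a protein-coding gene had a median of -1.16 at 72 h, and 68.7% were called lower. P2 itself lies inside its gene and not at an end. The direction of the P2 change depended on the scaling. RLE, total counts and the shared-peak factors also called the 72 h value lower, from -1.55 to -0.39. Loess offsets, however, follow the trend with site strength. With them the P2 site was higher by 0.52 at 6 h (adjusted p = 0.0046) and by 0.61 at 72 h (adjusted p = 0.00067). Without the first 0 h library the 6 h value was -0.46 (adjusted p = 0.02).

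At the distal promoter the counts were low, and the site was called higher at 6 h. The P1 site, chr21:35048911-35049354, had 2.40 and 3.35 CPM at 0 h, 4.09 and 7.88 at 6 h, then 4.63 and 4.63 at 72 h. All later libraries lay above both 0 h libraries, and the 6 h libraries lay on either side of the 72 h ones. The rise at 6 h was 1.1 (SE 0.30, adjusted p = 0.0064), and the 72 h value of 0.67 (SE 0.30) missed the threshold (adjusted p = 0.052). The 6 h call was lost with loess offsets (0.67, adjusted p = 0.079), without the first 0 h library (0.84, adjusted p = 0.058) and without the second 6 h library (0.44, adjusted p = 0.39). At 72 h the value was called with total counts (1.17), with the shared-peak factors (1.64), without the second 0 h library (0.94) and without either 6 h library (0.67 and 0.66). Peaks were present there in the second 6 h library and in both 72 h libraries. Per kb of site, over the 6 libraries, the mean level was 42.4 CPM at P2 and 10.1 CPM at P1.

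The balance of the 2 RUNX1 promoters can be read within each library from the counts as deposited, where a single scaling factor per library cancels out. Each read at P1 was matched by 47.7 and 51.5 reads at P2 in the 0 h libraries, 28.0 and 18.5 in the 6 h libraries, and 11.3 and 12.8 in the 72 h libraries. The 3 times did not overlap, and the order was 0 h, 6 h, 72 h from high to low. With 2 libraries against 2, a two-sided exact permutation test cannot give a p below 0.333, so no test was made. Loess offsets differ with site strength and do not cancel. With them P2 stood at 0.61 and P1 at 0.16 on the log2 scale at 72 h against 0 h, so the ratio of P2 to P1 then rose in place of falling, and its direction depended on this choice. The P1 counts behind the ratios ran from 37 to 249 reads.

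A further start inside RUNX1 opened strongly. RUNX1-AS1, an antisense gene, begins on the plus strand 213.0 kb into RUNX1 from P1, downstream of P2, at the site chr21:34835913-34836753. This site had 1.62 and 1.67 CPM at 0 h, 16.8 and 29.2 at 6 h, then 19.2 and 21.2 at 72 h. No 0 h library had a peak there and all 4 later libraries did. It rose by 3.82 (SE 0.27, adjusted p = 6.5e-10) at 6 h, or 14.1-fold, and by 3.61 (SE 0.27, adjusted p = 6.2e-10) at 72 h. These were the largest rises among the 149 sites at either time. Its reads per read at P2 went from 0.0142 and 0.00971 at 0 h to 0.146 and 0.200 at 6 h, then 0.367 and 0.358 at 72 h. ATAC-seq reads carry no strand, so accessibility that serves the antisense start and accessibility that serves RUNX1 cannot be told apart. The start of RUNX1-IT1, another RNA gene inside RUNX1, had no site within 1000 bases.

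**Figure D2:**
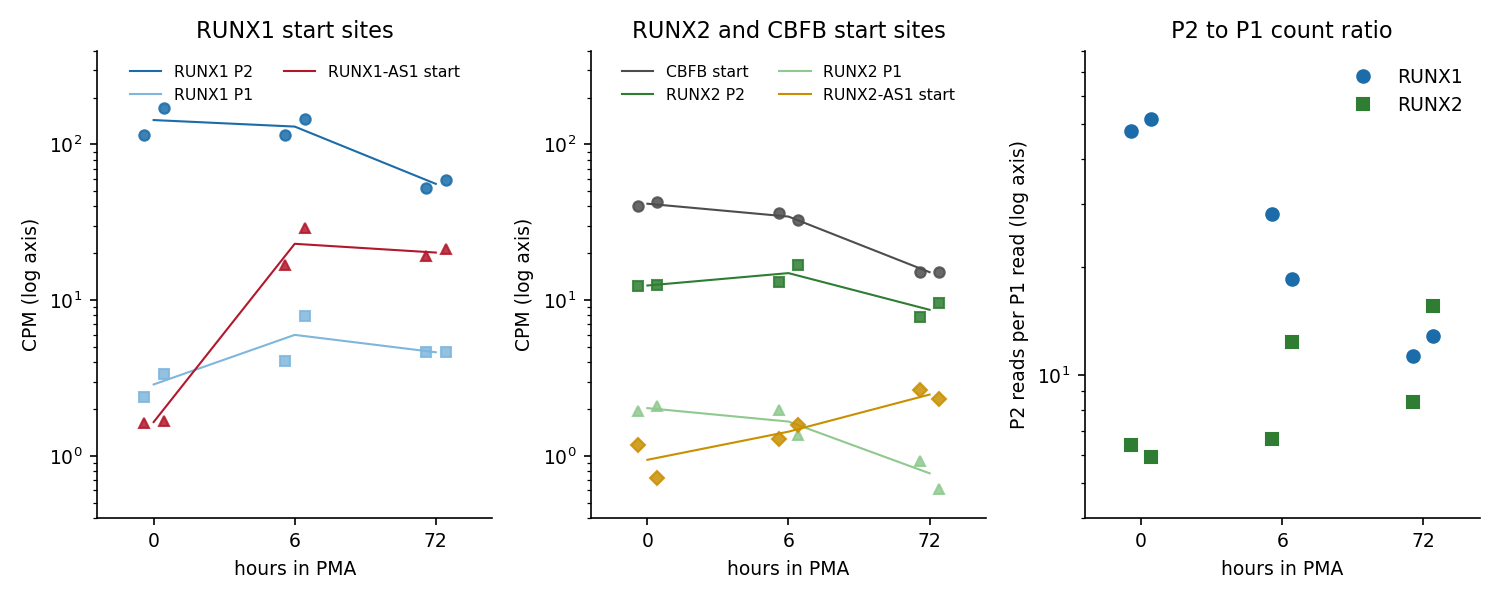
CPM per library (points, log axis) with the group mean (lines) at the start sites of RUNX1 on the left and of RUNX2 and CBFB in the middle, and reads at P2 per read at P1 in each library (log axis) on the right, against hours in PMA. RUNX1-AS1 went from 1.62 and 1.67 CPM at 0 h to 16.8 and 29.2 at 6 h, while RUNX1 P2 was lowest at 72 h, with 52.4 and 59.3 CPM.

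Away from its promoters, RUNX1 had the following calls by segment. Between P2 and the 3′ end, 9 of 16 sites (56.2%) were higher and 0 lower at 6 h, and 12 (75.0%) were higher and 2 (12.5%) lower at 72 h. In the interval between P1 and P2, 9 of 32 sites (28.1%) were higher and 5 (15.6%) lower at 6 h, and 11 (34.4%) were higher and 7 (21.9%) lower at 72 h. The shares over all tested sites were 23.4% and 16.8% at 6 h and 38.2% and 29.2% at 72 h, so the interval between the promoters lay near the background. The downstream flank had 5 of 8 sites higher and 1 lower at 6 h and 6 higher and 0 lower at 72 h, and the upstream flank had 2 of 7 higher and 0 lower at 6 h and 5 higher and 1 lower at 72 h. Median log2 fold changes at 72 h were 1.85 between P2 and the 3′ end, 0.44 between P1 and P2, 1.86 in the downstream flank and 1.00 upstream. In all 5 scalings, 10 of the 16 sites beyond P2 and 7 of the 32 between the promoters were higher at 72 h, and 0 and 4 were lower. The difference between segments was not tested, and the tables used here hold no exon positions, so exonic and intronic sites were not told apart.

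Among the sites beyond P2, chr21:34807365-34808809, 241.2 kb into the gene, followed the course of the antisense start. It had 2.53 and 4.21 CPM at 0 h, 28.7 and 37.3 at 6 h, then 27.9 and 33.8 at 72 h, and rose by 3.27 (SE 0.23) at 6 h and 3.17 (SE 0.22) at 72 h. All 4 later libraries were at least at 27.9 CPM and both 0 h libraries under 5 CPM. From 6 h to 72 h it changed by -0.11 (SE 0.19), which was not called; loess offsets gave 0.63 (adjusted p = 0.0066) and the shared-peak factors 0.56 (adjusted p = 0.01). Other sites of this stretch kept rising: chr21:34822837-34823487 had 1.1 and 1.05 CPM at 0 h, 3.67 and 2.47 at 6 h, then 7.97 and 9.63 at 72 h. This was an increase of 1.45 (SE 0.34) at 6 h and of 3.03 (SE 0.31) at 72 h, and the step from 6 h to 72 h was itself called (1.58, SE 0.27, adjusted p = 7.9e-05). The site chr21:34881670-34882356, 167.3 kb in, peaked early, with 2.21 and 2.15 CPM at 0 h, 9.47 and 10.3 at 6 h, then 5.05 and 4.20 at 72 h. It was called lower at 72 h than at 6 h (-1.1, SE 0.23), but not with the shared-peak factors (-0.42, adjusted p = 0.13). Nearer the 3′ end, chr21:34795386-34796062 had means of 0.512, 2.31 and 4.34 CPM and rose by 2.08 (SE 0.43) at 6 h and 2.99 (SE 0.39) at 72 h. At chr21:34825667-34826190 the rise came after 6 h, from a mean of 1.03 CPM to 3.45 (1.73, SE 0.34).

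Beyond the 3′ end, the site chr21:34752232-34753041 had 0.455 and 0.526 CPM at 0 h, 1.71 and 1.46 at 6 h, then 6.39 and 5.62 at 72 h. The 3 times were fully apart, with a rise of 1.64 (SE 0.42) at 6 h, 3.59 (SE 0.36) at 72 h and 1.95 (SE 0.30) between them. Its neighbour chr21:34754620-34755185 went the other way at 6 h, from 2.47 and 2.25 CPM to 0.853 and 1.20, and stood at 2.98 and 2.24 at 72 h. That 6 h drop of -1.13 (SE 0.37) was lost with the shared-peak factors (-0.83, adjusted p = 0.088) and without the first 6 h library (-0.96, adjusted p = 0.074).

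Between the promoters, RUNX1 held its strong sites that lost accessibility and others that gained it for a time. The first intron of RUNX1 is known to carry an enhancer active in blood stem and progenitor cells; whether a site below is that enhancer was not examined. The strongest site of this interval, chr21:35026493-35027564, lies 22.3 kb into the gene from P1. It had 48.9 and 59.6 CPM at 0 h, 23.9 and 27.2 at 6 h, then 16.3 and 17.1 at 72 h. The 3 times did not overlap. The site fell by 1.08 (SE 0.16, adjusted p = 1.1e-05) at 6 h and by 1.70 (SE 0.16, adjusted p = 9.1e-09) at 72 h, and was called lower at both times in all 5 scalings, with 72 h values from -1.88 to -0.65. The further drop from 6 h to 72 h (-0.62, SE 0.16) was not called with total counts (-0.25), without the second 6 h library (-0.47, adjusted p = 0.088) or without the first 72 h library (-0.54, adjusted p = 0.062), and had the opposite sign with loess offsets (0.22) and the shared-peak factors (0.05), neither of them called.

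Another strong site, chr21:34908181-34909123, 140.6 kb into the gene, behaved in the same way. It had 33.3 and 23.7 CPM at 0 h, 11.0 and 12.2 at 6 h, then 9.06 and 6.42 at 72 h. Both 0 h libraries lay above all later ones, and the changes were -1.29 (SE 0.21) at 6 h and -1.88 (SE 0.21) at 72 h, called in all 5 scalings. Its step of -0.59 from 6 h to 72 h was lost with loess offsets (-0.07), total counts (-0.22), without the second 6 h library (-0.46) and without the second 72 h library (-0.31), and the shared-peak factors gave 0.09. Weaker sites of the interval were lower too. The site chr21:34959547-34960118 changed by -1.72 (SE 0.46) at 6 h and -2.18 (SE 0.44) at 72 h, from a mean of 2.60 CPM at 0 h. At chr21:34919167-34919617 the 6 h drop of -1.26 (SE 0.49, adjusted p = 0.043) was lost in 7 of the alternatives, among them DESeq2 (adjusted p = 0.072).

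Some gains between the promoters were largest at 6 h. Of the 32 sites there, 2 were higher and 9 lower at 72 h than at 6 h. At chr21:34967283-34968099, 81.6 kb in, the libraries had 5.59 and 6.65 CPM at 0 h, 26.7 and 27.0 at 6 h, then 13.2 and 12.0 at 72 h. The 6 h libraries stood above all others, and the 72 h libraries above those of 0 h. The rise was 2.13 (SE 0.20) at 6 h and 1.04 (SE 0.19) at 72 h, and the fall between them was 1.09 (SE 0.18), each called in all 5 scalings. The site chr21:34982931-34984233, 65.7 kb in, chosen after its values were seen, ran alongside it with means of 6.78, 28.7 and 11.9 CPM. The site chr21:34994934-34995522, had 4.03 and 4.88 CPM at 0 h, 6.14 and 7.47 at 6 h, then 1.97 and 1.68 at 72 h, so that it ended below its start by 1.30 (SE 0.27). That 72 h call was lost with the shared-peak factors (-0.33, adjusted p = 0.3), whereas the fall of 1.92 (SE 0.27) from 6 h to 72 h was called in every setting run. Other sites of the interval were still high at 72 h: chr21:34935298-34935984, also chosen after its values were seen, had 1.62 and 1.20 CPM at 0 h, 4.09 and 3.67 at 6 h, then 6.32 and 5.10 at 72 h. Its step from 6 h to 72 h was 0.57 (SE 0.27), which was not called.

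**Figure D3:**
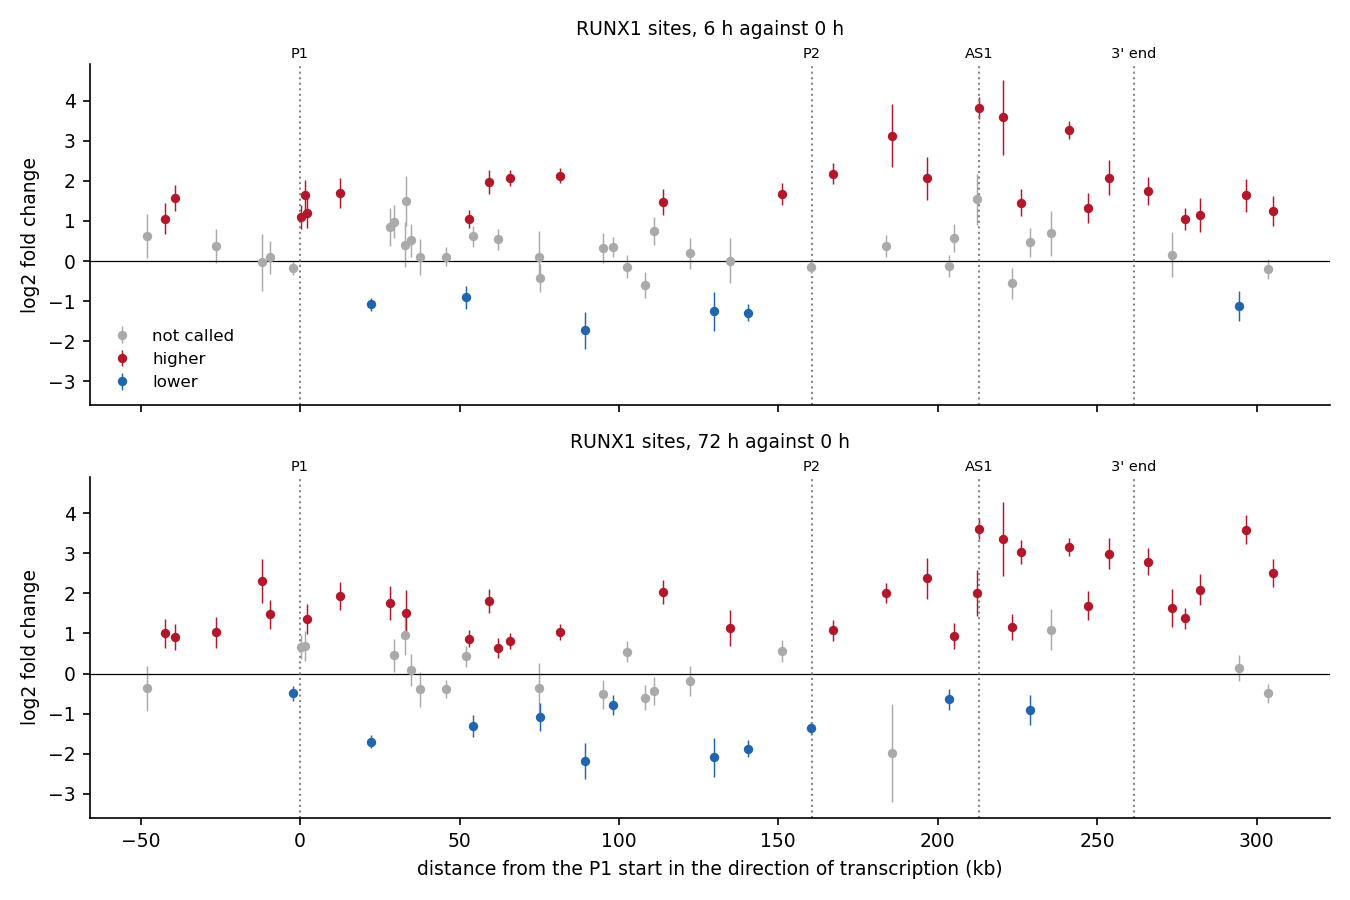
Log2 fold change with its standard error of the 65 RUNX1 sites at 6 h (top) and 72 h (bottom) against 0 h, by distance in kb from the P1 start in the direction of transcription; colours give the call and dotted lines the starts of P1, P2 and RUNX1-AS1 and the 3′ end of the gene. Of the 16 sites between P2 and the 3′ end, 12 were higher and 2 lower at 72 h, and of the 32 between P1 and P2, 11 and 7.

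RUNX2, on the plus strand of chromosome 6 (chr6:45328330-45551082), had accessible sites at both promoters. The P1 site, chr6:45327960-45328490, was faint, with 1.95 and 2.10 CPM at 0 h, 1.96 and 1.36 at 6 h, then 0.932 and 0.614 at 72 h. The 72 h libraries lay below the others. The value was -0.34 (SE 0.40) at 6 h, not called, and -1.39 (SE 0.39, adjusted p = 0.0037) at 72 h, where tested sites at gene ends had a median of -1.16. The 72 h call was lost with total counts (-0.89, adjusted p = 0.055), the shared-peak factors (-0.43, adjusted p = 0.35) and without the second 72 h library (-1.12, adjusted p = 0.072). Only the second 0 h and the second 6 h library had a peak there. The string of RUNX proteins stands 4 times in this promoter window, as the capitals in its sequence show for the part before the start.

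The RUNX2 P2 site, chr6:45421600-45422939, was stronger, with 12.4 and 12.4 CPM at 0 h, 13.0 and 16.8 at 6 h, then 7.82 and 9.53 at 72 h, and had a peak in all 6 libraries. It was lower at 72 h than at 0 h by 0.52 (SE 0.20, adjusted p = 0.028) with TMM, but higher by 0.45 (adjusted p = 0.047) with the shared-peak factors and at -0.02 with total counts, so no direction held over the scalings. Without the second 0 h library the 72 h value was -0.52 (adjusted p = 0.065), and without the first 72 h library -0.39 (adjusted p = 0.23). Per kb of site the mean level over the 6 libraries was 8.96 CPM at P2 and 2.80 CPM at P1. Reads at P2 per read at P1 were 6.37 and 5.91 at 0 h, 6.65 and 12.3 at 6 h, then 8.39 and 15.5 at 72 h, so that libraries of 6 h and 72 h overlapped, with 23 to 44 reads at P1. From 0 h to 72 h this ratio of deposited counts went up for RUNX2 and down for RUNX1, with no overlap of 0 h and 72 h in either gene. With loess offsets it went up for both, since RUNX2 P2 stood at -0.31 and RUNX2 P1 at -2.09 at 72 h, so the contrast between the genes did not hold over the scalings. The 72 h ratios of the genes, 11.3 and 12.8 for RUNX1 and 8.39 and 15.5 for RUNX2, did overlap.

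The antisense start RUNX2-AS1, beyond the 3′ end of RUNX2 at chr6:45576552-45577176, had 1.17 and 0.717 CPM at 0 h, 1.28 and 1.58 at 6 h, then 2.64 and 2.31 at 72 h. Its 72 h rise of 1.42 (SE 0.38, adjusted p = 0.0026) was lost with loess offsets (0.74, adjusted p = 0.096). RUNX2 overlaps SUPT3H, a gene of a histone acetyltransferase complex that is transcribed in the other direction, and the strongest site of the locus lies at the start of SUPT3H rather than of RUNX2. This site, chr6:45377240-45378586, had 95.4 and 95.7 CPM at 0 h, 87.8 and 91.3 at 6 h, then 32.5 and 36.7 at 72 h. It fell by 1.47 (SE 0.13) at 72 h with TMM, whereas loess offsets gave 0.42 (adjusted p = 0.0059) at 6 h and 0.21 (adjusted p = 0.11) at 72 h. Tested sites at gene ends had a median of -1.16 at 72 h with TMM.

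The largest loss at any of the 149 sites at 72 h was in RUNX2. At chr6:45369663-45370325, 41.7 kb from P1 and also inside SUPT3H, the libraries had 9.62 and 6.84 CPM at 0 h, 1.36 and 1.49 at 6 h, then 0.233 and 0.472 at 72 h. The 3 times did not overlap, and the counts at 72 h were 9 and 20 reads. The site fell by 2.50 (SE 0.33) at 6 h and by 4.50 (SE 0.36, adjusted p = 1.5e-09) at 72 h, called in every setting run. Upstream of P1, still within SUPT3H, both sites of the flank were lower at both times. The nearer one, chr6:45300344-45301261, had 4.29 and 3.82 CPM at 0 h, 1.96 and 1.52 at 6 h, then 0.362 and 0.236 at 72 h, a change of -3.75 (SE 0.40) at 72 h; its 6 h call (-1.26, SE 0.35) was lost without the second 6 h library (-1.1, adjusted p = 0.069). The farther one, chr6:45294130-45294886, had 16.6 and 16.6 CPM at 0 h, 3.50 and 4.71 at 6 h, then 5.26 and 3.63 at 72 h. It fell by 1.98 (SE 0.25) at 6 h and stood at -1.90 (SE 0.23) at 72 h, so most of its loss was present at 6 h.

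Beyond P2, RUNX2 had sites that rose at 6 h and sites that rose later. Of 17 tested sites there, 5 (29.4%) were higher and 3 (17.6%) lower at 6 h and 8 (47.1%) were higher and 4 (23.5%) lower at 72 h, near the 23.4%, 16.8%, 38.2% and 29.2% of all tested sites. Of the 8 sites between P1 and P2, 1 was higher and 1 lower at 6 h and 1 was higher and 3 lower at 72 h. In all 5 scalings, 6 of the 17 were higher and 0 lower at 72 h. The site chr6:45436627-45437581, 108.8 kb from P1, had 6.11 and 8.99 CPM at 0 h, 21.6 and 26.7 at 6 h, then 10.8 and 10.7 at 72 h. It rose by 1.67 (SE 0.21) at 6 h in all 5 scalings; its 72 h value of 0.50 (SE 0.21, adjusted p = 0.039) was lost with DESeq2 (0.32), with RLE (0.32) and without the first 0 h library (0.25), the first 72 h library (0.49) or the second (0.51). At chr6:45478087-45478799 the level went from 1.04 and 0.717 CPM to 5.29 and 5.47 at 6 h, then 5.70 and 5.03 at 72 h, a rise of 2.64 (SE 0.33) that stood at 2.63 (SE 0.32) at 72 h. The shared-peak factors gave a further 0.66 (adjusted p = 0.033) from 6 h to 72 h at this site, where TMM gave -0.01.

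Other RUNX2 sites opened late. At chr6:45504772-45505542 the libraries had 2.92 and 2.58 CPM at 0 h, 3.16 and 2.15 at 6 h, then 10.6 and 10.5 at 72 h. The 0 h and 6 h libraries overlapped and both 72 h libraries were far above them, with a rise of 2.05 (SE 0.26, adjusted p = 3.5e-06) from 6 h to 72 h. A neighbour at chr6:45538585-45539140 had means of 0.629, 1.24 and 4.28 CPM and rose by 2.79 (SE 0.38) from 0 h to 72 h. Close by, chr6:45541826-45542414 had 3.90 and 3.20 CPM at 0 h, 0.938 and 1.27 at 6 h, then 1.58 and 1.98 at 72 h. Beyond the 3′ end, chr6:45569472-45570020 had 10 and 0 reads at 0 h, 17 and 42 at 6 h, then 77 and 81 at 72 h; it was higher by 2.25 (SE 0.68) at 6 h and by 2.76 (SE 0.63) at 72 h, and DESeq2 called neither (1.98, adjusted p = 0.32, and 2.44, adjusted p = 0.16). Without the second 0 h library, the one with 0 reads, its 6 h value was 1.08 (adjusted p = 0.15). At chr6:45541826-45542414 the 6 h fall of 1.62 (SE 0.36) was called in every setting run, and the 72 h value of -0.99 (SE 0.32) was lost with total counts (-0.49), the shared-peak factors (-0.02), and without the first 0 h library (-0.86) or the first 72 h library (-0.84).

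RUNX3, on the minus strand of chromosome 1 (chr1:24899511-24965138), had no accessible site at either promoter. The nearest site lay 1.55 kb from the P1 start and 1.88 kb from the P2 start. In the peak lists of the single libraries, a check added after the data had been seen, 0 of 6 libraries had a peak within 1000 bases of P1 or of P2. The start of RUNX3-AS1, beside P2, had no site within 1000 bases either. The P2 window of RUNX3 was as GC-rich as that of RUNX2, at 76.0%, and the RUNX2 P2 site had a peak in all 6 libraries. Absence from a list of sites gives no count, so no level or limit can be stated for the RUNX3 promoters.

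Around its P1 start, RUNX3 opened at a run of sites. From 5.6 kb upstream to 17.5 kb inside the gene there were 7 sites, and all 7 were higher at 72 h than at 0 h, 5 of them also at 6 h. No rule fixed these bounds beforehand, so the count of 7 is only a description. The whole interval between P1 and P2 had 5 of 6 sites higher and 0 lower at 72 h, with a lowest value of -0.47. The whole upstream flank had 6 of 9 higher and 1 lower, with a lowest value of -2.13. Over all tested sites 38.2% were higher and 29.2% lower at 72 h. Among the 7, the 4 most accessible at 72 h lay at 15.5, 12.4, 9.7 and -5.6 kb from P1. The site chr1:24954973-24955653, at 9.7 kb, had 1.17 and 2.77 CPM at 0 h, 4.78 and 11.2 at 6 h, then 17.4 and 16.4 at 72 h. It rose by 2.03 (SE 0.35) at 6 h and 3.05 (SE 0.34, adjusted p = 9.2e-08) at 72 h, called in all 5 scalings. Its step from 6 h to 72 h (1.02, SE 0.29) was lost with DESeq2 (adjusted p = 0.23) and without the first 6 h library (0.59, adjusted p = 0.11), the shallower and lower one of that time.

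The neighbouring RUNX3 sites differed in their timing. At 2.0 kb upstream of P1, chr1:24966563-24967432 had 2.79 and 4.16 CPM at 0 h, 16.3 and 20.3 at 6 h, then 9.40 and 10.1 at 72 h. It was highest at 6 h, rose by 2.39 (SE 0.24) at that time and by 1.47 (SE 0.23) at 72 h, and the fall of 0.92 (SE 0.21) between them was lost with the shared-peak factors (-0.25, adjusted p = 0.32) and without the second 6 h library (-0.69, adjusted p = 0.052). The site chr1:24959397-24960031, at 5.3 kb inside, reached its level at 6 h, with 1.69 and 1.77 CPM at 0 h, 7.25 and 10.2 at 6 h, then 8.44 and 7.43 at 72 h. The site chr1:24952301-24952948, at 12.4 kb, opened late. It had 2.99 and 3.97 CPM at 0 h, 2.90 and 3.54 at 6 h, then 15.3 and 13.0 at 72 h, and the rise of 2.10 (SE 0.24, adjusted p = 1.3e-06) from 6 h to 72 h was called in every setting run.

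At chr1:24949190-24949830, 15.5 kb inside, the libraries had 2.14 and 2.15 CPM at 0 h, 5.12 and 11.4 at 6 h, then 12.3 and 14.2 at 72 h, with a rise of 2.0 (SE 0.31) at 6 h and 2.62 (SE 0.30) at 72 h. At chr1:24947183-24947792, 17.5 kb inside, the 6 h libraries disagreed: they had 0.682 and 4.02 CPM, below and above both 0 h libraries at 2.21 and 1.63. The 6 h value of 0.51 (SE 0.43) was not called; it was -1.52 (adjusted p = 0.037) without the second 6 h library and 1.09 (adjusted p = 0.012) without the first. Its 72 h libraries had 6.99 and 7.15 CPM, a rise of 1.90 (SE 0.40) that DESeq2 did not call (adjusted p = 0.098). At 29.4 kb upstream, chr1:24994101-24994713 had means of 0.532, 2.40 and 3.82 CPM and rose by 2.26 (SE 0.42) at 6 h and 2.85 (SE 0.40) at 72 h. Farther upstream, chr1:25006358-25006778 was lower at 72 h than at 6 h by 1.67 (SE 0.40), a call lost without the second 6 h library (-1.23, adjusted p = 0.094).

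**Figure D4:**
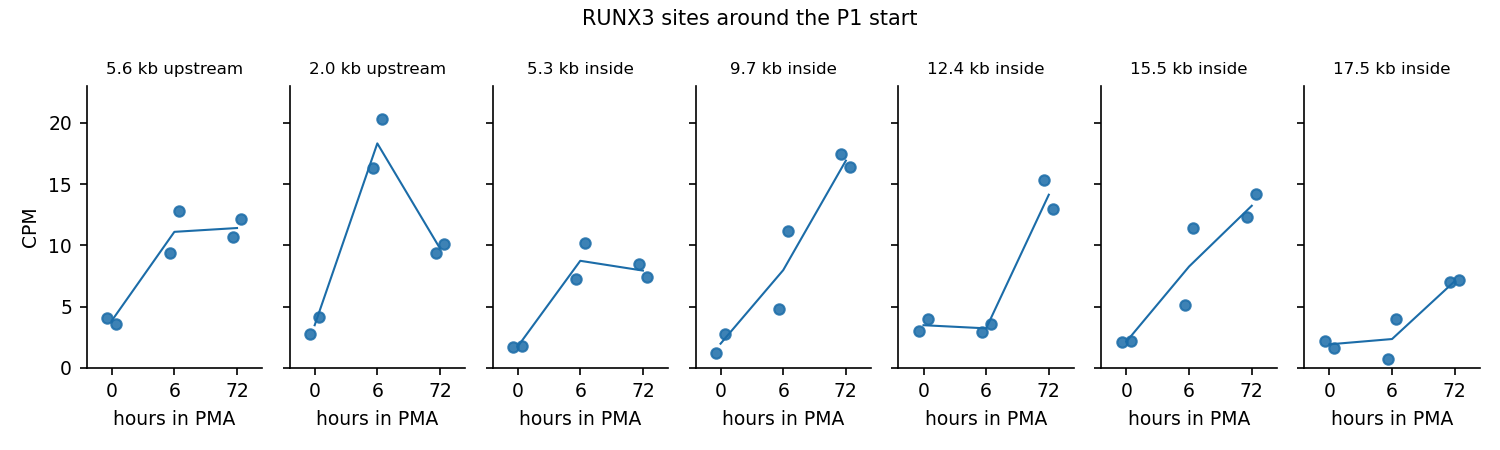
CPM per library (points) and group mean (lines) against hours in PMA at 7 sites around the RUNX3 P1 start, a stretch whose bounds no rule fixed beforehand. Each panel is headed by its distance in kb from that start. The site 2.0 kb upstream was highest at 6 h, at 16.3 and 20.3 CPM, and the one 12.4 kb inside rose only after 6 h, to 15.3 and 13.0 CPM at 72 h.

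Past P2, RUNX3 had 6 of 7 sites (85.7%) higher and 0 lower at 6 h and 4 (57.1%) higher and 0 lower at 72 h. Over all tested sites 23.4% were higher and 16.8% lower at 6 h, and 38.2% and 29.2% at 72 h. In all 5 scalings, 4 of the 7 sites were higher at 6 h and 2 at 72 h, with 0 lower. The most accessible RUNX3 site over the 6 libraries, chr1:24910954-24911672, had 4.29 and 7.55 CPM at 0 h, 12.9 and 20.3 at 6 h, then 15.9 and 16.4 at 72 h. Both 0 h libraries lay below all later ones, with a rise of 1.49 (SE 0.25) at 6 h and 1.43 (SE 0.25) at 72 h. From 6 h to 72 h it changed by -0.06, not called, and by 0.61 (adjusted p = 0.025) with the shared-peak factors. Beyond the 3′ end, 1 of 10 sites was higher and 0 lower at 6 h and 1 was higher and 2 lower at 72 h. One of those, chr1:24862108-24862606, fell by 1.25 (SE 0.40), a call lost with total counts (-0.74), the shared-peak factors (-0.27) and without the second 72 h library (-0.71). RUNX3 counts leaned on single libraries: its 14 calls at 6 h were 9 without the first 0 h library and 9 by DESeq2, and its 12 calls for 72 h against 6 h were 6 without the second 72 h library and 5 by DESeq2.

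CBFB lies on the plus strand of chromosome 16 (chr16:67029149-67101058), and the site over its start, chr16:67028450-67030168, was its strongest. It had 40.4 and 42.9 CPM at 0 h, 36.2 and 32.7 at 6 h, then 15.1 and 15.1 at 72 h. The 72 h libraries were lower than all others. The value at 6 h was -0.28 (SE 0.15, adjusted p = 0.15), which RLE (-0.43, adjusted p = 0.03) and DESeq2 (-0.43, adjusted p = 0.044) called lower. At 72 h the site fell by 1.46 (SE 0.15, adjusted p = 4.1e-08), and it was called lower in all 5 scalings, with values from -1.64 to -0.45. Sites at gene ends fell in general. Over 19126 tested sites within 1000 bases of the end of a protein-coding gene, the median at 72 h was -1.16 and 68.7% were called lower. The fall of the CBFB start was thus near the median of gene ends. Per kb of site its mean level of 17.7 CPM compared with 42.4 at RUNX1 P2 and 8.96 at RUNX2 P2.

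Inside CBFB, 2 of the 3 sites away from the start were higher at both times. Over all tested sites 23.4% were higher at 6 h and 38.2% at 72 h, and a count among 3 sites is only a description. The site chr16:67055530-67056615, 26.9 kb from the start and chosen after its values were seen, had 9.16 and 10.2 CPM at 0 h, 38.5 and 37.7 at 6 h, then 17.9 and 18.9 at 72 h. It rose by 1.97 (SE 0.17, adjusted p = 1.1e-08) at 6 h, stood at 0.92 (SE 0.17) at 72 h and fell by 1.04 (SE 0.16) between them. At 6 h it had higher CPM than the CBFB start itself, with 38.5 and 37.7 CPM against 36.2 and 32.7. A weaker site 39.3 kb from the start, chr16:67068157-67068834, had 3 and 6 reads in the 0 h libraries and 120 and 105 in the 72 h libraries, and its CPM of 0.195 and 0.287 went to 2.30 and 1.52 at 6 h, then 3.11 and 2.48 at 72 h. Its log2 change was 2.87 (SE 0.52) at 6 h and 3.47 (SE 0.48) at 72 h.

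Most CBFB sites lay in its flanks and several inside neighbouring genes. In CES4A, a carboxylesterase gene upstream, chr16:66996200-66996844 went from 0.585 and 0.669 CPM to 3.50 and 4.11 at 6 h, then 2.43 and 2.76 at 72 h, a rise of 2.60 (SE 0.38) at 6 h. Also in CES4A, chr16:67000833-67001438 fell from 7.47 and 5.12 CPM at 0 h to 1.99 and 2.03 at 72 h (-1.63, SE 0.27). In PHAF1, downstream, chr16:67115431-67116126 had 1.04 and 0.908 CPM at 0 h, 7.59 and 8.83 at 6 h, then 10.3 and 12.3 at 72 h. It rose by 3.09 (SE 0.29) at 6 h and 3.54 (SE 0.28, adjusted p = 1.5e-09) at 72 h, the largest rise around CBFB. At the start of PHAF1, chr16:67109315-67110225 was lower at 72 h by 0.89 (SE 0.19), a call lost with loess offsets (-0.35) and total counts (-0.38), and the shared-peak factors gave 0.09. Still in PHAF1, chr16:67116589-67117102 had means of 0.605, 1.24 and 3.44 CPM and rose by 2.54 (SE 0.45) from 0 h to 72 h. Upstream, chr16:67022890-67023353 rose by 1.37 (SE 0.44) at 72 h from a mean of 0.707 CPM, a call lost with DESeq2 (adjusted p = 0.084) and without the first 72 h library (0.85, adjusted p = 0.22). The 8 calls around CBFB for 72 h against 6 h were 3 without either 72 h library and 5 without either 6 h library.

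**Figure D5:**
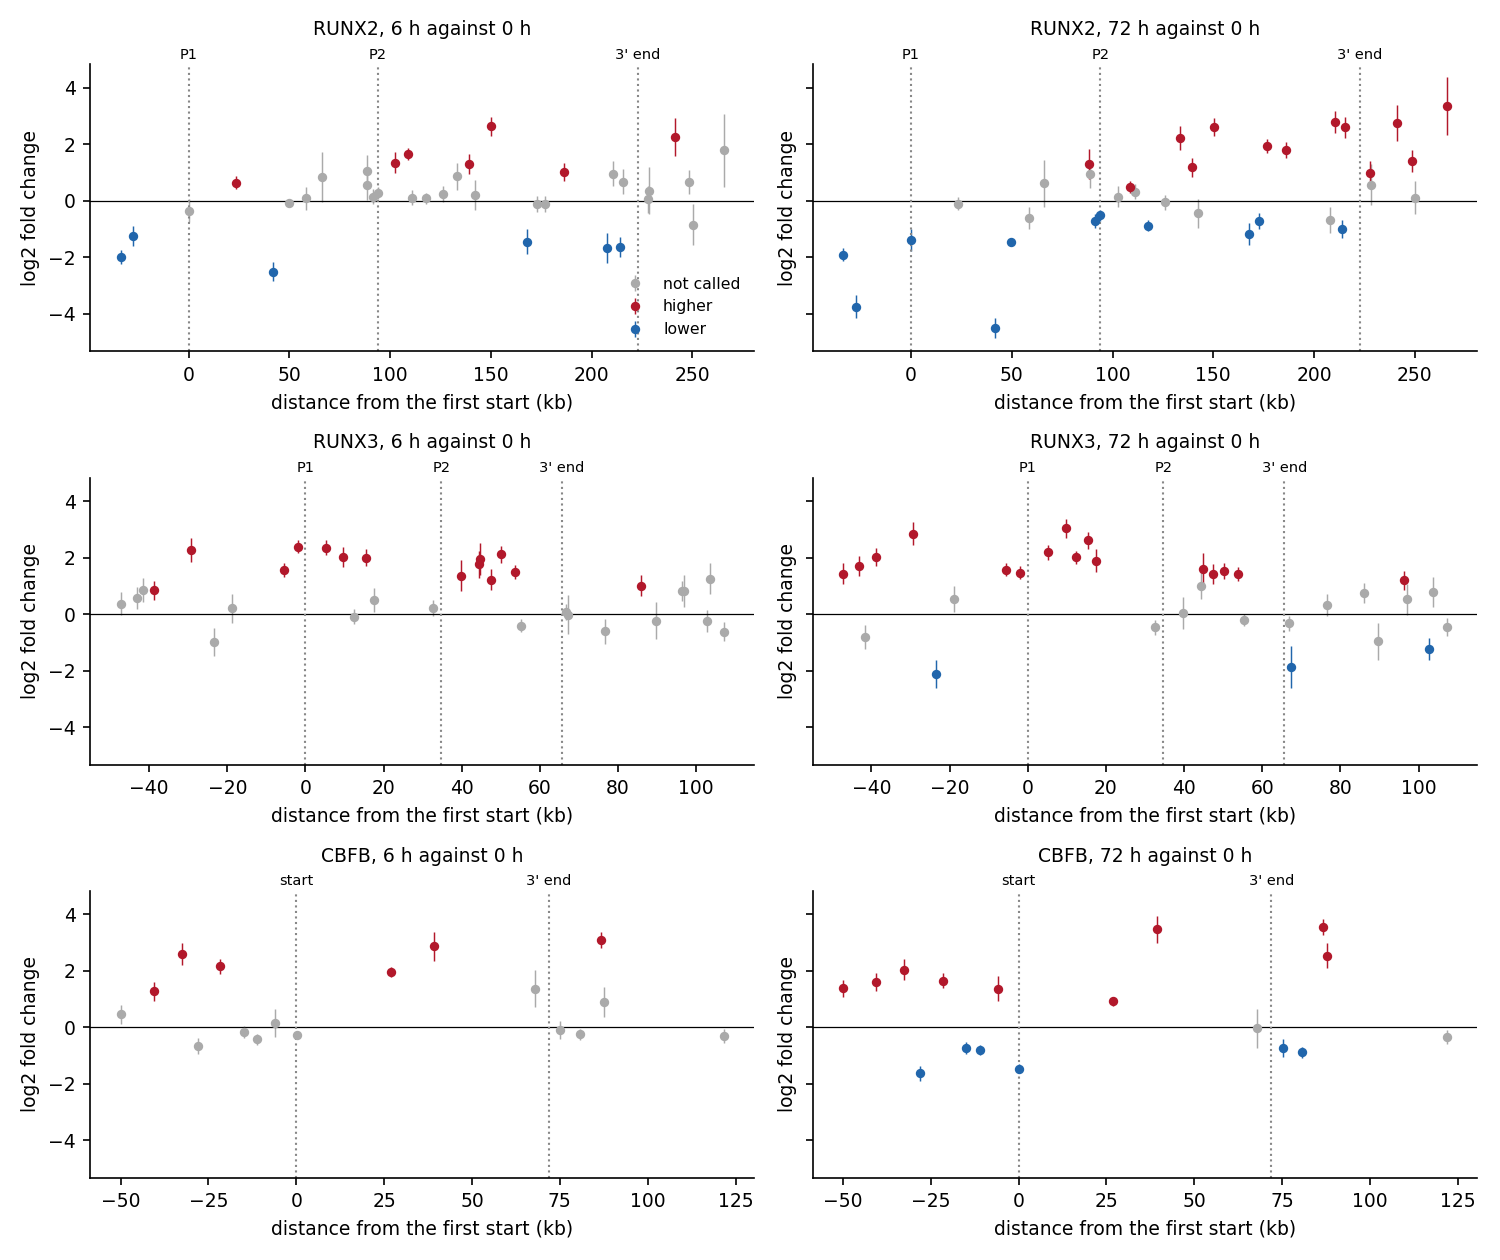
Log2 fold change with its standard error of the tested sites of RUNX2 (35), RUNX3 (32) and CBFB (17) at 6 h (left) and 72 h (right) against 0 h, by distance in kb from the first start of the gene in the direction of transcription; colours give the call and dotted lines the starts and the 3′ end. RUNX2 sites on the left of P1 were lower at both times. The 7 RUNX3 sites of the stretch around P1, whose bounds no rule fixed beforehand, were all higher at 72 h.

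The sites at gene ends, of either side of a gene, with values nearest to those of each start are named here as a description. Likeness was the Euclidean distance between log2 CPM values centred over the 6 libraries, among sites within 1000 bases of the end of a protein-coding gene whose mean CPM was within 2 times. The CBFB start was closest to sites at BLVRB (distance 0.0378, 72 h change -1.46), ERI3 (0.0620, -1.46) and ATG12 (0.0681, -1.47) of 7177 candidates. RUNX1 P2 was closest to SHF (0.166, -1.25), WDR33 (0.214, -1.27) and POLR3E (0.217, -1.21) of 1296. For RUNX1 P1 the nearest were CGB3 (0.246), TMCO2 (0.259) and TBC1D25 (0.377) of 4879, with 6 h changes of 1.1, 1.04 and 1.18. RUNX2 P2 was nearest to SRP72 (0.174), GMPR (0.187) and EFNA3 (0.192) of 5763, and RUNX2 P1 to TAF11L3 (0.269), MAPK4 (0.283) and CGNL1 (0.298) of 3918. The points of each pair share their libraries and their scaling, and some site had to be nearest, so the distances do not show a shared course.

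Core binding factor acts with corepressors of the TLE, SIN3A, HDAC and CBFA2T families, with coactivators such as EP300 and CREBBP, and beside GATA, ETS and TAL1 proteins on shared elements. For 24 such partner genes, 23 had a site within the gene body extended by 5 kb, 253 sites in all. Of these, 68 were higher and 60 lower at 6 h and 91 were higher and 84 lower at 72 h, shares of 26.9% and 23.7% and of 36.0% and 33.2%, beside 23.4% and 16.8% and then 38.2% and 29.2% of all tested sites. Their median change at 72 h was 0.14, against 0.29 over all sites. Which direction had more sites turned with the scaling: at 72 h there were 79 higher and 97 lower with RLE and 145 and 43 with the shared-peak factors. ETS1, an ETS family factor that binds DNA together with RUNX1, had 25 of 28 sites higher and 0 lower at 72 h, with a median of 3.03. FLI1, an ETS factor of megakaryocytes, had 8 of 11 higher and 0 lower (median 1.68). CBFA2T3, a corepressor of the ETO family, had 3 of 14 sites higher and 10 lower (median -1.54), TLE3 1 of 12 higher and 7 lower, and GATA2 0 of 4 higher and 4 lower. Over the 5 scalings, ETS1 had 25 to 27 higher and at most 1 lower, and FLI1 5 to 10 higher and 0 lower. CBFA2T3 had 8 to 10 lower and at most 4 higher, TLE3 4 to 10 lower, and GATA2 2 to 4 lower.

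Among 18 known target genes of RUNX1 in megakaryocytes and myeloid cells, more sites lost than gained accessibility with TMM, RLE and loess offsets, but not with total counts (65 higher and 53 lower at 72 h) or the shared-peak factors (84 and 38). All 18 had sites, 167 in total, of which 38 were higher and 53 lower at 6 h and 50 were higher and 75 lower at 72 h. These were 22.8% and 31.7% and then 29.9% and 44.9%, beside 23.4% and 16.8% and then 38.2% and 29.2% of all tested sites, with a median of -0.27 at 72 h. At 72 h, 12.3% of all tested sites at gene ends were higher and 68.7% lower, against 41.4% and 24.4% away from gene ends. How many sites of the target and partner lists lay at gene ends was not counted, so the all-site shares may be an unlike background for them. PF4, a platelet chemokine gene, had 2 of 3 sites higher and 0 lower at 72 h, and CSF1R, the receptor of a macrophage growth factor, 10 of 14 higher and 1 lower. ITGA2B, the platelet integrin alphaIIb, had 0 of 6 higher and 6 lower, NFE2, a factor of platelet formation, 0 of 9 higher and 7 lower, and KLF1, an erythroid factor that RUNX1 represses, 0 of 3 higher and 3 lower. Over the 5 scalings, ITGA2B had 2 to 6 lower sites, NFE2 5 to 7 and KLF1 2 to 3. These lists carry no test, and the comparisons at 6 h and 72 h share the 0 h libraries.

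The reach of 50 kb decided which sites were members, and the sites just inside and outside it had the following mean CPM at 0 h, 6 h and 72 h. Beyond the 3′ end of RUNX1, the outermost member lay 43.4 kb away, with 1.11, 2.89 and 6.62 CPM, and the next site, 52.6 kb away, had 0.345, 1.42 and 6.55. Upstream of RUNX3, the outermost member at 46.8 kb had 1.29, 1.52 and 3.50 CPM and the next site, at 52.1 kb, had 3.50, 9.93 and 21.2. Beyond its 3′ end, the member at 41.4 kb had 2.65, 1.75 and 1.91 CPM and the next site, at 50.7 kb, 38.4, 23.7 and 15.7. Upstream of RUNX2 the nearest site outside lay 105.5 kb away, and upstream of CBFB 50.9 kb away, with 10.6, 9.03 and 9.83 CPM.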

How the data were processed

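Omni-ATAC libraries of K562 cells were made at 0 h, 6 h and 72 h of PMA, 2 per time. Trim Galore 0.4.3, BWA 0.7.17, SAMtools 1.9, deepTools 3.0.1, MACS2, bedtools 2.26 and DESeq, with build hg38, are named in the submitters' processing notes without roles. The deposited site table holds the authors' read counts per site and library, which were the only values tested. The same table holds log2 fold changes and adjusted p-values, which the authors deposited and which were not used. Peaks were called per library, as separate deposited lists show, and of these only positions were used: the score, the fold enrichment ratio and the −log10 p and q that the authors deposited were not used. Library totals ran from 12258890 to 35548737 reads in sites, and this depth sets the precision of each site.

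Counts were fitted over all sites with edgeR 4.0.16 (quasi-likelihood test, R 4.3.3), TMM scaling, 1 term for time and all 6 libraries. The edgeR filter (minimum count 10) removed 3376 of 181135 sites, and p-values were adjusted by Benjamini-Hochberg over 177759. The biological coefficient of variation was 0.166. The script was tested on simulated data. Alternatives were other scalings, DESeq2 1.42.0, loess offsets from limma 3.58.1, no filter, a replicate block, a stricter threshold, another reach and each library left out. A site belonged to a start if it lay within 1000 bases. Named sites were the start sites, the site with the highest mean CPM of each gene, and per gene and time up to 3 sites (RUNX1 5) with the largest change in each direction among those called, with a mean of at least 1 CPM and libraries that did not overlap, plus up to 3 that differed most between 72 h and 6 h. The member genes, the lists of partners, targets and markers and the tests were chosen with earlier results of these data known. Gene positions, promoters and sequences come from RefSeq tables (GRCh38.p14), which gave no exon positions. The strand of CBFB is from general knowledge. Some single genes of the marker and target lists are not reported here.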

Additional observations from a re-analysis of the deposited data

How the results depend on the processing

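Each comparison rests on 2 libraries a time and 12258890 to 35548737 reads, so sites with few reads are measured with the least precision. Of 141 values at 47 named sites, all 141 kept their call without the filter on low counts. The number was 137 with RLE, 127 with DESeq2, 120 with total counts, 116 with loess offsets and 108 with factors from sites with a peak in every library. A kept call includes the direction of a called value. A value called in neither setting counted as kept even where its sign turned. Signs turned, against values called under either setting, as follows; the cause was not tested. With shared-peak factors the site at the start of PHAF1 stood at 0.0878 (72 h against 0 h) and 0.0293 (72 h against 6 h), RUNX2 P2 at 0.45 at 72 h, and for 72 h against 6 h the RUNX1 sites 241.2, 140.6 and 22.3 kb in at 0.56, 0.0858 and 0.0532, the RUNX2 site 150.1 kb in at 0.66 and the RUNX3 site 53.7 kb in at 0.61. With loess offsets RUNX1 P2 stood at 0.52, 0.61 and 0.0875 in the 3 comparisons, the SUPT3H start at 0.42 and 0.21 at 6 h and 72 h, and the RUNX1 sites 241.2 and 22.3 kb in at 0.63 and 0.22 for 72 h against 6 h. The RUNX3 site 17.5 kb in was at -1.52 at 6 h without the second 6 h library and at 1.09 without the first.

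With the threshold set at 0.01 and a log2 change beyond 1 in either direction, calls over all sites were 41759 of 71348 at 6 h and 40148 of 76311 for 72 h against 6 h. The lower calls of the 4 genes were then 7, 16 and 18 in the 3 comparisons. RUNX2 had 8, 15 and 9, RUNX3 6 and CBFB 3 for 72 h against 6 h, partners 64 and 60 and targets 54 and 28 at 6 h and for 72 h against 6 h. Lower calls at 72 h were 13 with total counts and 12 with shared-peak factors, and against 6 h they were 19 and 12, with 44 and 65 higher calls. DESeq2 gave 18 higher calls for 72 h against 6 h, and for RUNX3 9 at 6 h and 5 for 72 h against 6 h. Within gene bodies alone, RUNX3 had 9, 9 and 5 calls and CBFB 2, 3 and 2 in the 3 comparisons, and the 4 genes had 43 higher and 20 lower at 72 h and 14 higher against 6 h. With 50 kb around them, partners had 244, 353 and 238 calls and targets 184, 265 and 167.

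With 1 library left out, the lone library of a time is assumed to vary like the others. Calls over all sites then ran from 51202 to 64079 at 6 h, from 96029 to 122851 at 72 h and from 44528 to 82991 for 72 h against 6 h. In the same order, higher calls of the 4 genes ran from 39 to 53, 59 to 73 and 19 to 35, and lower calls from 9 to 13, 22 to 31 and 20 to 38. RUNX1 calls ran from 23 to 30, 34 to 46 and 19 to 31, RUNX2 from 9 to 12, 17 to 24 and 9 to 16, RUNX3 from 9 to 16, 15 to 21 and 6 to 15, and CBFB from 6 to 8, 13 to 15 and 3 to 9. Partner calls ran from 88 to 119, 147 to 177 and 72 to 128, and target calls from 69 to 86, 100 to 127 and 41 to 87.

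The replicate numbers are shared between times, but with 2 pairs the labels do not show that they pair the libraries. Deviations of same-numbered libraries correlated at 0.153, 0.0885 and 0.135. With a replicate block the 4 genes had 53 higher and 13 lower calls at 6 h, 73 and 32 at 72 h and 29 and 35 for 72 h against 6 h. Of the 141 values, 139 kept their call under the block; RUNX1 P1 at 72 h (0.71, adjusted p = 0.023) and the RUNX3 site 15.5 kb in from 6 h to 72 h (0.69, adjusted p = 0.011) passed the threshold.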
